A study of Rattus norvegicus with 8 samples.

Results

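Nucleolar ribosome biogenesis factors are the proteins that transcribe, modify, cut and fold ribosomal RNA in the nucleolus and load it with ribosomal proteins. A list of 48 such genes was taken by gene function, with earlier results of these data known. Of these, 40 had a probe set with no other gene symbol among the 14506 named genes on the arrays. The remaining 8, namely Rrn3, Wdr36, Rrp12, Utp6, Utp20, Pes1, Nop2 and Rrp1b, are not analysed here. The one annotated probe set of Rrn3 carries a second gene symbol, Ntan1.

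Total RNA came from isolated livers of male Wistar rats aged 6 to 10 weeks, perfused with Krebs-Henseleit buffer. The buffer was normoosmotic (305 mosm/L) in 4 samples and hypoosmotic (225 mosm/L) in 4, all with the time point of 120 min. No genotype, transgene or drug is named for either group. Values are log2 expression on 1-colour Affymetrix arrays, changes are hypoosmotic minus normoosmotic, and a gene is said to have risen or fallen only at an adjusted p under 0.05 in limma over all 14506 genes. Whether each sample is a different animal is not stated in the labels, and the p-values therefore cover only the variation among these samples, some of which may be technical.

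Ribosome production starts with RNA polymerase I, which transcribes the large ribosomal RNA precursor. Small nucleolar ribonucleoproteins (snoRNPs) then guide its chemical modification, the small subunit processome and the large subunit factors cut and fold it, and export factors take the subunits to the cytoplasm. The process is a large expense for a growing cell, and the transcription factor Myc is known to drive many of its genes.

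The nucleolar factors lay lower as a group in hypoosmotic livers, by small amounts, and 3 of the 40 fell: the nucleolar GTPase gene Gnl3, the snoRNP core gene Nop56 and the small subunit gene Wdr43. Called lower were 3 of 40 members, against 1.42% of all genes, and called higher were 0 of 40, against 0.558% (limma; at an unadjusted p under 0.05, 16 members were lower and 1 higher, against 7.97% and 6.6% of all genes). The median change of the 40 was −0.225 log2 units, and that over all genes was 0.0375. In all, 34 members had a change below 0, as did 41.4% of all genes. Because dim probe sets show compressed changes, the same shares were taken over brighter genes. These were the 6574 whose mean was at least that of the lowest member, 4.98 log2 units. Of these 2.81% were called lower and 51.2% lay below 0, and their median change was −0.0075. No member was removed for low signal.

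The count depended on single arrays. The number of members called was 0 without normoosmotic replicate 1, without normoosmotic replicate 3, or without hypoosmotic replicate 1, 2 or 3. It was 1 without normoosmotic replicate 2 and 4 without normoosmotic replicate 4 or hypoosmotic replicate 4. The standard errors of the members' changes lay between 0.105 and 0.167, as large as the change of many single members.

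Gnl3 (nucleostemin; probe set 10790002) encodes a GTP-binding nucleolar protein abundant in dividing and stem cells. It read 7.84, 7.56, 7.87 and 7.56 in normoosmotic replicates 1 to 4, and 6.90, 7.03, 7.05 and 7.31 in the hypoosmotic ones. All 4 hypoosmotic values lay under the lowest normoosmotic one, and hypoosmotic replicate 4 came nearest. Gnl3 fell by 0.635 ± 0.127 (SE), or by 35.6% on the linear scale (limma, adjusted p = 0.0229). A further probe set assigned to Gnl3 was dim, with a mean of 2.22 and a change of −0.41 (adjusted p = 0.113 over all probe sets). Of 17 alternative settings 10 kept the call of Gnl3, with adjusted p-values from 0.0133 to 0.336.

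Nop56 (probe set 10839857) encodes a core protein of the box C/D snoRNPs, which place methyl groups on ribosomal RNA. Its normoosmotic values were 8.94, 8.49, 8.52 and 8.40 and its hypoosmotic values 7.86, 8.14, 7.97 and 8.01. The groups did not overlap, and normoosmotic replicate 1 stood above the other three of its group. Nop56 fell by 0.59 ± 0.13 (SE), or by 33.7% (limma, adjusted p = 0.0393). Without normoosmotic replicate 1 its change was −0.475 (adjusted p = 0.0928). The call was kept in 7 of 17 alternatives, with adjusted p-values from 0.0248 to 0.343.

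Wdr43 (probe set 10888662), a member of the processome subcomplex that acts earliest on the precursor, read 7.93, 7.82, 8.0 and 7.76 against 7.38, 7.41, 7.5 and 7.38. Here too the groups were apart, and the hypoosmotic arrays lay within 0.12 of each other. Wdr43 fell by 0.46 ± 0.11 (SE), or by 27.3% (limma, adjusted p = 0.0435). Only 5 of 17 alternatives kept this call, with adjusted p-values from 0.0296 to 0.444.

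**Figure D1:**
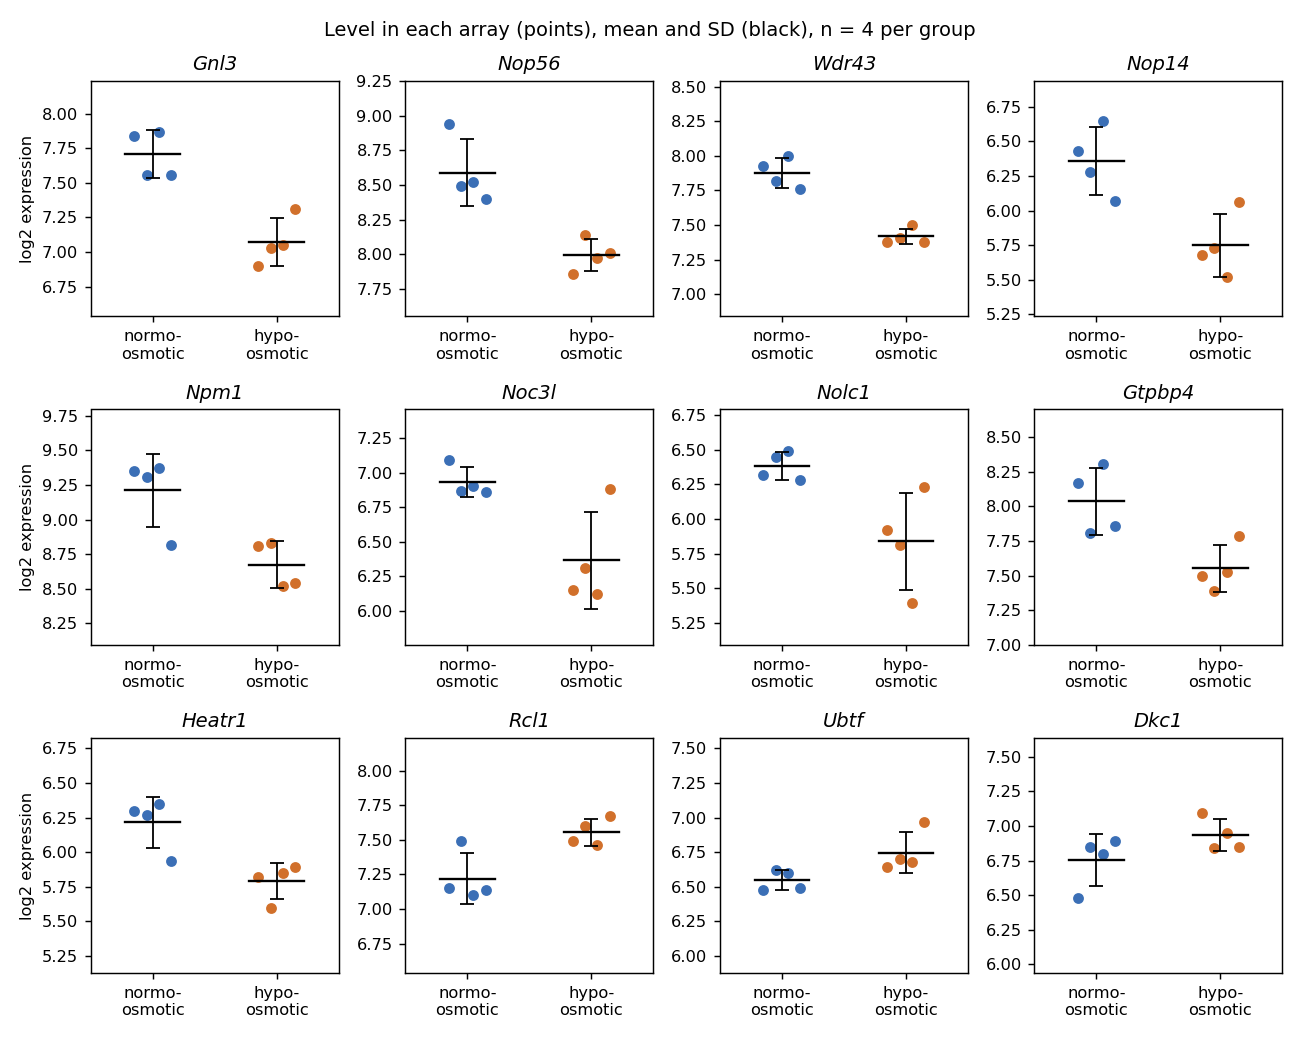
Log2 expression of 12 nucleolar factors in each array (points), by perfusion buffer, with the mean as a horizontal line and the SD as the error bar (n = 4 per group); every panel spans the same number of log2 units. Gnl3, Nop56, Wdr43, Nop14, Nolc1, Gtpbp4 and Heatr1 have no hypoosmotic value as high as a normoosmotic one, while Npm1 and Noc3l overlap through 1 array each, and Rcl1, Ubtf and Dkc1 have a higher mean in hypoosmotic arrays.

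The 3 genes that fell share a feature that the list was not built on: each holds genes of small nucleolar RNAs (snoRNAs) within its bounds in RefSeq's gene table (GRCr8). The counts were 5 in Nop56, 3 in Gnl3 and 3 in Wdr43, among them Snord57, Snord86 and Snord110 in Nop56 and Snord19 and Snord69 in Gnl3. Intronic snoRNAs are cut from the spliced introns of such host genes. Tsr1, Ncl and Nop58 were the other measured members with snoRNA genes inside, so that 3 of 6 such members were called against 0 of the 34 without. The medians were −0.425 and −0.18. Over all coding genes on the arrays, 295 held a snoRNA gene, and 4.41% of these were called lower, against 1.36% of the 14151 without. Their medians were −0.02 and 0.04. The 6 members with snoRNA genes were all bright, from the 85.6th percentile of mean level (Tsr1) to the 97.5th (Ncl). Some members without were as bright, such as Npm1 at the 95.6th, but many were dimmer. Genes at or above the lowest member's mean were called lower more often than all genes (2.81% against 1.42%). Neither comparison was matched for level. Strand was not considered, and the snoRNAs themselves were not analysed here; the feature was looked up after the members' values were seen.

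The promoters of the members were searched for letters known from growth genes. In RefSeq's windows of 250 bases before to 50 after the start (GRCr8), 45 of 48 members matched; Wdr43, Bop1 and Rrs1 did not. The E-box CACGTG, which reads the same on both strands and which Myc with Max, among other factors, binds, was present in 14 of 45, or 31.1%. It was present in 8.06% of the 11950 genes on the arrays with a window and in 7.08% of all 27457 genes with one. Of the 37 measured members with a window, 10 (27.0%) had it. The ETS-type letters CCGGAAG were in 42.2% of the members against 13.1% of genes on the arrays, GGGCGG in 71.1% against 50.8%, CCAAT in 20% against 39% and TATAAA in 6.67% against 12%. In the measured members alone these shares were 40.5%, 75.7%, 21.6% and 2.7%. Both strands were searched, matches of different motifs could overlap, and the median GC content was 59.3% in the members' windows and 58% in those of the genes on the arrays.

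Among 37 measured members with a window, the 10 with CACGTG had a median change of −0.33 and a range of −0.635 to 0.335, and the 27 without had a median of −0.185 and a range of −0.61 to 0.20. The ranges overlapped almost wholly, and Nop56 and Nop14 were among those without. The split by GGGCGG was wider, with medians of −0.28 in 28 members with it and −0.0975 in 9 without. By CCGGAAG it ran the other way, at −0.185 in 15 with and −0.26 in 22 without. By CCAAT the medians were −0.20 in 8 with and −0.255 in 29 without, and TATAAA was in 1 measured member. None of these splits was tested. The 150 bases before the start of the called members Gnl3 and Nop56 are shown because only Gnl3 has CACGTG, given in capitals.
Gnl3 (chr16:6219783-6219932, minus strand, GRCr8): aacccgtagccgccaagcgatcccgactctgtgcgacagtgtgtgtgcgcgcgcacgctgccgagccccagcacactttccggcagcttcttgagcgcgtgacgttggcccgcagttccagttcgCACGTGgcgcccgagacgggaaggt
Nop56 (chr3:137930029-137930178, plus strand, GRCr8): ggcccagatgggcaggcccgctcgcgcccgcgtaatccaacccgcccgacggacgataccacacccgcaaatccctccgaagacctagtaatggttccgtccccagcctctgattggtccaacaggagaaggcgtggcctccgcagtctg

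In Gnl3 the motif begins 25 bases before the start. The 30 bases around CACGTG are given for 4 further members, of which Noc3l, Tsr1 and Fbl had changes below 0 and Rcl1 one above 0, with the motif between 12 and 22 bases after the start in each.
Noc3l (chr1:245997673-245997702, minus strand, GRCr8): ttgagctctgggCACGTGtgtgtttcctac
Tsr1 (chr10:60258798-60258827, plus strand, GRCr8): gtttactcggtgCACGTGggcagttagaat
Fbl (chr1:92597416-92597445, plus strand, GRCr8): ggcgcttttttcCACGTGtgaaagcctgag
Rcl1 (chr1:236238114-236238143, plus strand, GRCr8): cctgttctaaacCACGTGgacgcgtcgggg
These 4 were picked for the like place of their motif, with their changes known, and none passed the threshold. In the other 6 measured members with CACGTG it began between −184 and 4 relative to the start. A match says only that the letters are present.

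The remaining 37 members did not pass the test, and they are described by role. RNA polymerase I genes had a median change of −0.21 over 4 measured members, with 0 called (limma; 1 at an unadjusted p under 0.05). Polr1b, the second largest subunit, read 6.11, 6.16, 6.33 and 5.81 in normoosmotic arrays and 5.94, 5.42, 5.61 and 5.45 in hypoosmotic ones. Hypoosmotic replicate 1 lay above the lowest normoosmotic value, and the change was −0.4975 (95% interval −0.81 to −0.18; adjusted p = 0.106). The largest subunit Polr1a, whose product forms the active site with that of Polr1b, had a change of −0.235. Tcof1, the treacle gene, whose product ties ribosomal DNA transcription to processing, had one of −0.185.

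Ubtf, which encodes the factor that keeps ribosomal DNA chromatin open, stood on the other side. It read 6.48, 6.62, 6.60 and 6.49 against 6.64, 6.70, 6.68 and 6.97. The hypoosmotic values all lay above the normoosmotic ones, by as little as 0.02, and the change was 0.20 (−0.04 to 0.44; adjusted p = 0.463). It was the 1 member apart in this direction, against 3.21% of all genes. In the other direction 10 of 40 members had non-overlapping groups, or 25%, against 5.05% of all genes and 9.7% of the 6574 brighter ones.

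The genes listed under box C/D snoRNPs had the lowest median of the roles, −0.365 over 5 members, with all 5 below 0. The list includes Nolc1, which is not a core protein of this class, and the rank depends on placing it here. After Nop56 came Nolc1, the nucleolar phosphoprotein that chaperones snoRNPs, at 6.32, 6.45, 6.49 and 6.28 against 5.92, 5.81, 5.39 and 6.23. Its groups did not overlap, but the hypoosmotic arrays ranged over 0.84 log2 units, and the change was −0.55 (−0.88 to −0.21; adjusted p = 0.0962). Without hypoosmotic replicate 4 it was −0.68 (adjusted p = 0.0325). Fbl, the methyltransferase fibrillarin, had a change of −0.365 (adjusted p = 0.216), and Rrp9, a protein of the U3 particle, one of −0.215.

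Nop58 is the partner of Nop56 in the same particle, and it read otherwise. Its values were 8.33, 8.20, 8.40 and 8.16 against 8.05, 8.29, 7.90 and 8.45, which overlap widely. The change of Nop58 was −0.10 (−0.39 to 0.19; adjusted p = 0.80), so 95% intervals of Nop56 (−0.88 to −0.31) and Nop58 share values, and the difference between them was not tested.

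The box H/ACA snoRNP genes, whose products convert uridine to pseudouridine, lay near 0, with a median of −0.07 over 4 members. No member was called (limma; 0 at an unadjusted p under 0.05). Gar1, Nop10 and Nhp2 had changes of −0.11, −0.0975 and −0.0375. Nop10, the smallest protein of the particle, read 9.45, 9.42, 9.48 and 9.41 against 9.52, 9.37, 9.17 and 9.31. Dkc1, the pseudouridine synthase dyskerin, read 6.48, 6.85, 6.80 and 6.89 against 7.09, 6.84, 6.95 and 6.85. Its groups overlapped and its change was 0.18 (−0.09 to 0.44; adjusted p = 0.571). The contrast between both snoRNP classes is a description of 5 and 4 genes, with Nolc1 counted in the box C/D list, and was not tested.

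The small subunit factors formed the largest role, with 14 measured members, a median of −0.18 and 11 changes below 0. Besides Wdr43, 5 members had an interval wholly below 0. Nop14, needed for processing of the 18S precursor, read 6.43, 6.28, 6.65 and 6.07 against 5.68, 5.73, 5.52 and 6.06. Normoosmotic replicate 4 and hypoosmotic replicate 4 were separated by 0.01, while the others lay far apart. The change of −0.61 ± 0.15 (SE) missed the threshold (limma, adjusted p = 0.0569) and passed it in 5 of 17 alternatives, among them without the dimmest 25% of genes (0.0479), with weights per array (0.0343) and without either of these arrays (0.0394 and 0.0289).

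Heatr1, which links polymerase I transcription to the processome, read 6.30, 6.27, 6.35 and 5.94 against 5.82, 5.6, 5.85 and 5.89. Again normoosmotic replicate 4 was the low array of its group, without overlap, and the change was −0.425 (adjusted p = 0.104). Utp14a, Utp18 and the late GTPase-like factor gene Tsr1 had changes of −0.46, −0.40 and −0.39, with adjusted p-values of 0.127, 0.126 and 0.109. Utp15, Wdr75, Wdr3, Noc4l and Bms1 lay between −0.18 and −0.04 and Utp3 at 0.01, each with an interval that included 0.

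Rcl1 and Nob1 lay above 0. Rcl1, whose protein takes part in cleavage of the precursor, read 7.15, 7.49, 7.10 and 7.14 against 7.49, 7.6, 7.46 and 7.67. Normoosmotic replicate 2 reached the hypoosmotic range. Rcl1 had a change of 0.335 (0.08 to 0.59; adjusted p = 0.191) and is the 1 member with an interval wholly above 0. Nob1, the nuclease that makes the final cut of 18S RNA in the cytoplasm, had a change of 0.125.

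The large subunit and export factors had a median of −0.22 over 8 members, with 0 called (limma; 2 at an unadjusted p under 0.05, both lower). Noc3l, of the complex that moves the pre-60S particle out of the nucleolus, read 7.09, 6.87, 6.90 and 6.86 against 6.15, 6.31, 6.12 and 6.88. In 3 of the hypoosmotic arrays it lay under every normoosmotic value, and in hypoosmotic replicate 4 it lay within the normoosmotic range. The change was −0.565 (adjusted p = 0.0893), and −0.74 without that array (adjusted p = 0.0105). Gtpbp4, a nucleolar GTPase of 60S assembly, read 8.17, 7.81, 8.31 and 7.86 against 7.5, 7.39, 7.53 and 7.79. Its groups were apart by 0.02, and the change was −0.485 (adjusted p = 0.0979), with −0.49 in its other probe set.

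Of the measured members of the complex formed with Pes1, Wdr12 had a change of −0.30 (−0.66 to 0.06) and Bop1 one of −0.0875. Wdr12 ranged over 0.91 units within the normoosmotic group, from 6.84 in replicate 4 to 7.75 in replicate 3. Noc2l and the export adaptor gene Nmd3 had changes of −0.27 and −0.175. Nop16 and Rrs1 were at −0.05 and 0.0025. A dimmer probe set of Nop16, with a mean of 4.26, had a change of 0.1125.

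The multifunctional nucleolar proteins all lay below 0, with a median of −0.33 over 5 members and Gnl3 the 1 called. Npm1, the histone chaperone nucleophosmin, read 9.35, 9.31, 9.37 and 8.82 against 8.81, 8.83, 8.52 and 8.54. Normoosmotic replicate 4 lay at the hypoosmotic level. The change was −0.54 (−0.85 to −0.23; adjusted p = 0.075), and −0.67 without that array (adjusted p = 0.0258). Npm1 has 4 probe sets, which may read copies of the gene, and their changes lay between −0.54 and −0.41.

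Ncl, the RNA chaperone nucleolin, read 9.91, 9.76, 9.90 and 9.63 against 9.5, 9.44, 9.39 and 9.55. The groups did not overlap, and the change was −0.33 ± 0.11 (SE), which did not pass (limma, adjusted p = 0.155). Mybbp1a, a regulator of ribosomal DNA transcription, had a change of −0.29 and Lyar, a nucleolar regulator of cell growth, one of −0.255.

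**Figure D2:**
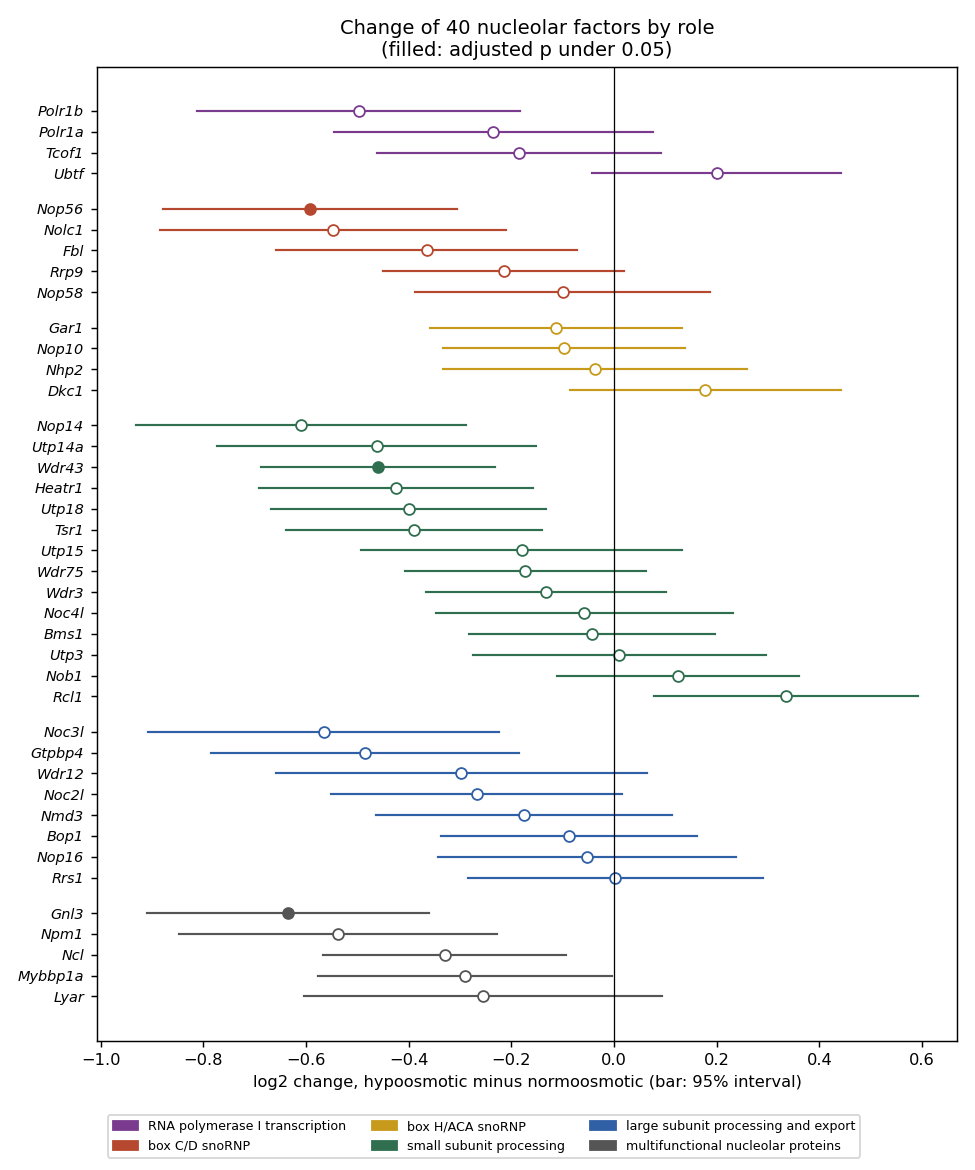
Log2 change (hypoosmotic minus normoosmotic) of the 40 measured nucleolar factors with 95% intervals from limma, grouped and coloured by role, with filled points for an adjusted p under 0.05. Gnl3, Nop56 and Wdr43 are filled; 16 intervals lie wholly below 0 and 1, of Rcl1, wholly above it.

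The members' levels differed between arrays together. As the median over the 40 members of the deviation from each gene's normoosmotic mean, the normoosmotic replicates 1 to 4 had 0.03, 0.02, 0.11 and −0.11625 log2 units and the hypoosmotic replicates −0.20, −0.28, −0.29 and −0.1175. Normoosmotic replicate 4 and hypoosmotic replicate 4 nearly met, while the other arrays were well apart. The same median over all genes lay between −0.01 and 0.0525 in every array. Hypoosmotic replicate 3 held the lowest of 8 values for 14 members and hypoosmotic replicate 2 for 12, and normoosmotic replicate 3 held the highest for 17.

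**Figure D3:**
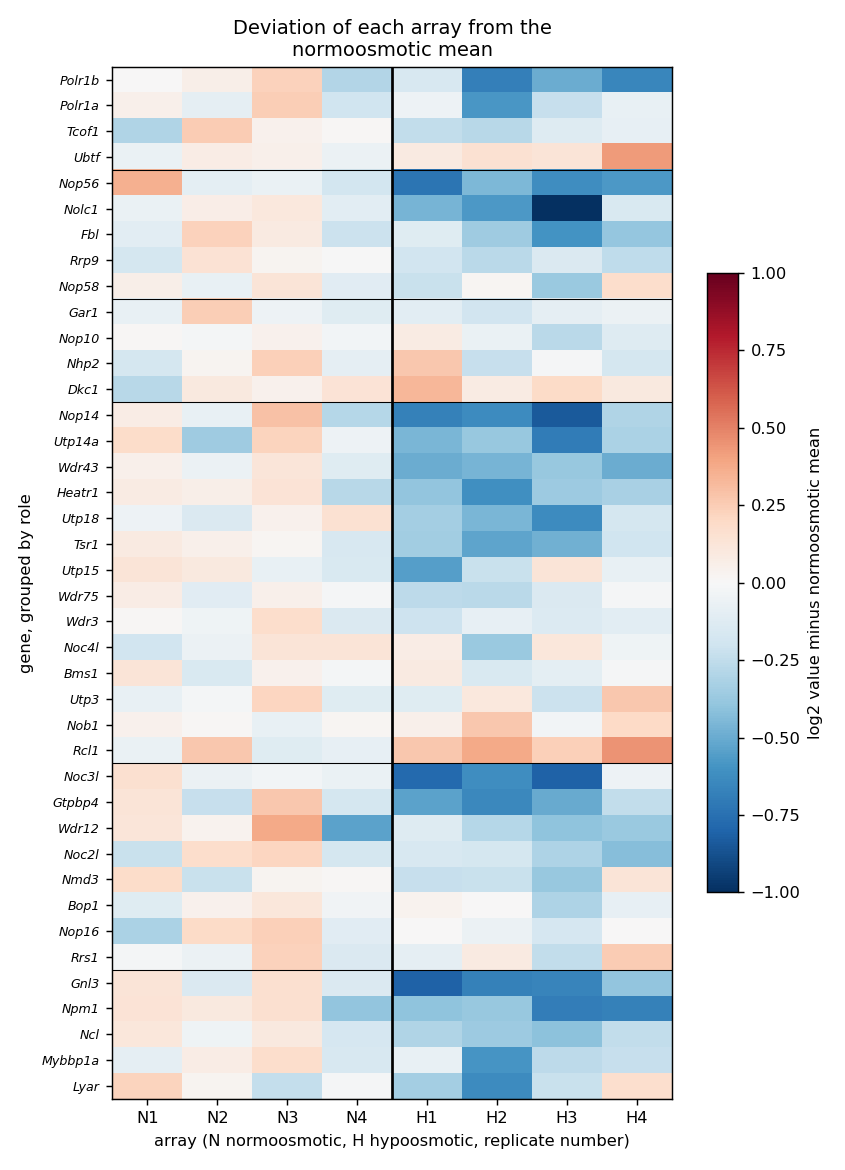
Deviation of each array (columns) from the normoosmotic mean of the gene (rows, 40 nucleolar factors grouped by role), in log2 units, blue for lower and red for higher. Most hypoosmotic cells are blue, with the palest column in hypoosmotic replicate 4; the box H/ACA genes are pale on both sides of 0, and Ubtf and Rcl1 are red in all 4 hypoosmotic arrays.

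The arrays also differed in the circadian clock. A clock score was taken as the mean log2 level of the activators Bmal1 and Npas2 less the mean of the output genes Dbp and Per3. It was −2.805 and −3.385 in normoosmotic replicates 1 and 3, 1.265 and 1.49 in normoosmotic replicates 2 and 4, and between −0.52 and 1.38 in the hypoosmotic arrays. Of the 40 members, 26 had a higher mean in normoosmotic replicates 1 and 3 than in 2 and 4. The share over all genes is not given here, so this count cannot be read as particular to the members. With the score as a covariate the changes of Gnl3, Nop56 and Wdr43 were −0.54, −0.52 and −0.41 (adjusted p = 0.067, 0.125 and 0.136), and 0 members and 92 genes in all were called. Without normoosmotic replicates 1 and 3, a choice made after seeing the data, they were −0.4875, −0.45 and −0.37 (adjusted p = 0.336, 0.343 and 0.444), with 0 members and 21 genes called. The median change of the members was −0.205 with the covariate and −0.20 without these arrays. The part of the clock in the members' levels was not tested beyond these fits.

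**Figure D4:**
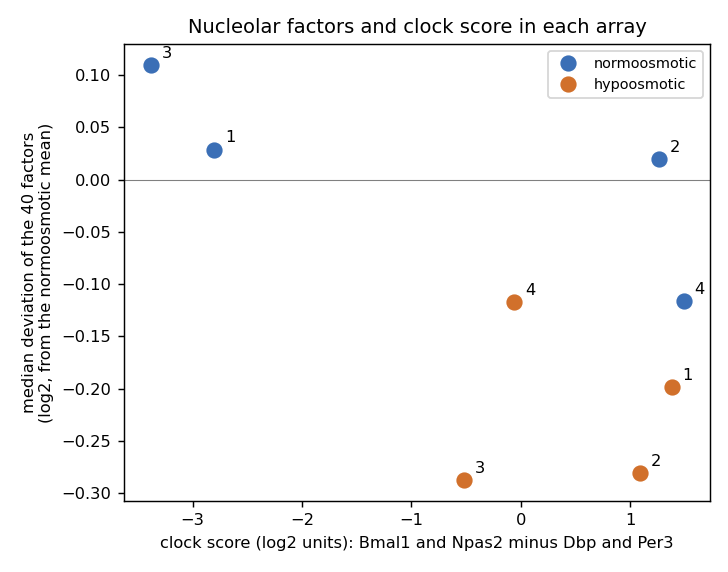
Median deviation of the 40 nucleolar factors from the normoosmotic mean (log2 units, vertical axis) against the clock score (log2 units, horizontal axis) in each of the 8 arrays, labelled with the replicate number. Normoosmotic replicates 1 and 3 lie far to the left. Normoosmotic replicate 2 has a score of 1.265, inside the hypoosmotic range of −0.52 to 1.38, and lies above all 4 hypoosmotic arrays. Normoosmotic replicate 4, at 1.49, lies just to the right of that range. Its median deviation of −0.11625 is level with that of hypoosmotic replicate 4, −0.1175.

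Hepatocyte markers were high in all arrays, with Alb between 12.94 and 13.08. In whole liver, fewer cells of a type and less RNA per cell cannot be told apart. The summed log2 level of 10 hepatocyte markers was 117.95 to 118.31 in normoosmotic and 117.45 to 119.1 in hypoosmotic arrays. The sums for macrophage, endothelial, stellate, cholangiocyte and leukocyte markers also overlapped between groups, with 0 of these markers called (limma; at an unadjusted p under 0.05, 1 stellate marker was lower and 1 cholangiocyte and 1 leukocyte marker were higher). A change below 0 was seen in 1 of 10 macrophage, 1 of 4 endothelial and 7 of 8 stellate markers. For cholangiocyte and leukocyte markers it was 2 of 4 and 4 of 7, against 41.4% of all genes. Both measured erythroid markers were lower at an unadjusted p under 0.05 and were not called, with sums of 9.49 to 11.64 and 9.16 to 10.56. Their part in the members' changes was not tested.

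Genes of ribosome production outside the 48 were read in the same fit. In 5 lists of such factors with 110 measured genes, 10 (9.09%) fell and 0 rose, the median change was −0.12, and 84 (76.4%) lay below 0 and 26 above. Over all genes 1.42% were called lower, 41.4% lay below 0 and the median was 0.0375. Of the 6574 brighter genes 2.81% were called lower, 51.2% lay below 0 and the median was −0.0075. Large subunit factors had 6 of 43 called (14.0%) and a median of −0.21, small subunit factors 3 of 34 (8.82%) and −0.13, and RNA polymerase I subunits and factors 1 of 14 and −0.1275. The assembly factors of snoRNPs had 0 of 9 called (limma; 0 at an unadjusted p under 0.05) and lay between −0.275 for Nufip1 and 0.22 for Ruvbl2. The RNA exosome list had 0 of 10 (2 lower and 1 higher at an unadjusted p under 0.05), from −0.445 for the nuclease gene Dis3 to 0.405 for Exosc5.

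Some genes of these lists changed more than Gnl3, the member with the lowest change. Nol10, a small subunit factor, fell by 0.99 ± 0.14 (SE), from 6.13, 5.97, 6.13 and 5.87 to 5.22, 4.68, 5.03 and 5.22 (limma, adjusted p = 0.00398). Taf1d, a subunit of the polymerase I selectivity factor whose gene holds 8 snoRNA genes, fell by 0.965 ± 0.178. Of the 10 genes of these lists that fell, only Taf1d held any snoRNA gene. The polynucleotide kinase gene Nol9 fell by 0.92 ± 0.14 and the helicase gene Ddx18 by 0.915 ± 0.166. Nvl, an ATPase of 60S maturation, fell by 0.68, and Rbm28 by 0.59, which was less than Gnl3. The kinase gene Riok1 and the 18S methyltransferase gene Dimt1 fell by 0.71 and 0.67. Nol10 and Nol9 kept the call in 16 of 17 alternatives, Taf1d, Ddx18 and Nvl in 12, Rbm28 in 9, Dimt1 in 8 and Riok1 in 7. At the upper ends of the lists were Dhx37 at 0.29, Wdr18 at 0.22 and Polr1e at 0.21, none called.

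The genes of the ribosome itself lay near 0. Of 68 cytosolic ribosomal protein genes 0 were called (limma; 0 at an unadjusted p under 0.05), the median change was −0.01375, and they lay between −0.24 for Rpl39 and 0.26 for Rpl36a. Ribosomal protein genes have many near-identical copies in the genome, so single values are uncertain.

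Among regulators of ribosome production, Myc fell from 9.20, 9.29, 9.35 and 9.51 to 8.71, 8.25, 8.52 and 8.57, a change of −0.825 ± 0.125 (SE; limma, adjusted p = 0.00581). It kept the call in 16 of 17 alternatives, the exception being without normoosmotic replicates 1 and 3 (adjusted p = 0.0664). Mxd1, whose product competes with Myc for Max, rose by 0.70 ± 0.13 and Mycn, a relative of Myc, by 0.62 ± 0.14, keeping the call in 11 and 7 of 17 alternatives. Of the 17 measured regulators 1 fell and 2 rose, against 1.42% and 0.558% of all genes, and the median change was −0.07. Of 11 measured p53 target and p53 pathway genes, which can respond when ribosome assembly fails, 1 rose and 0 fell, against 0.558% and 1.42% of all genes. Pmaip1, a gene that promotes cell death, rose by 0.78 ± 0.16, a call that 10 of 17 alternatives kept. At the lower end Ccng1 had a change of −0.41. Whether ribosome assembly failed was not tested. The median of this list was 0.175.

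**Figure D5:**
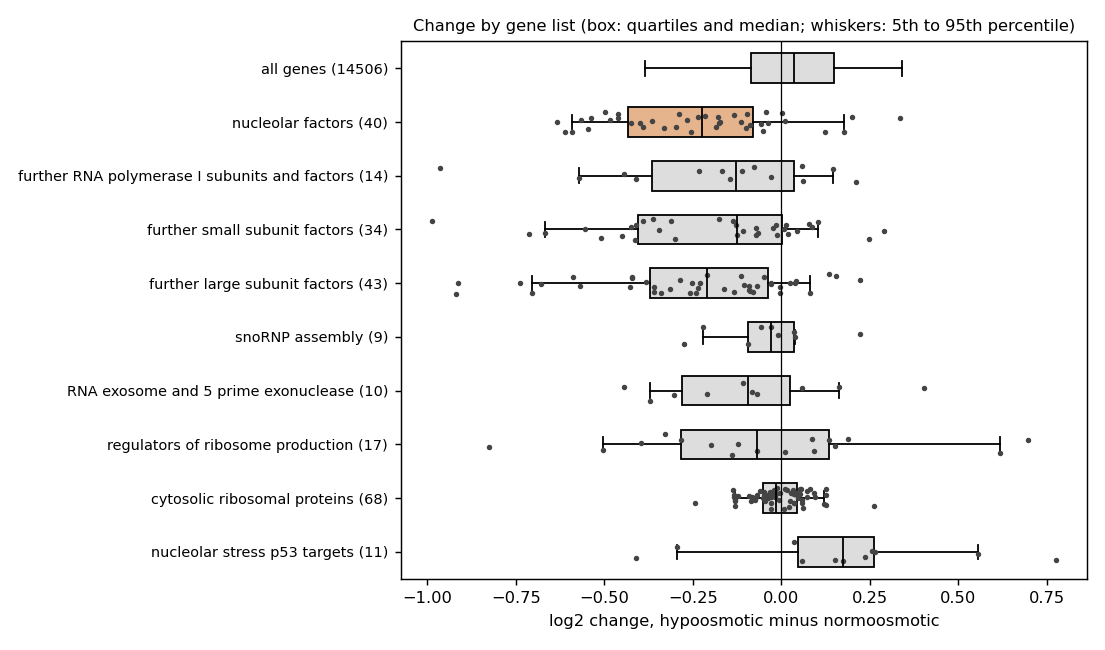
Log2 changes (hypoosmotic minus normoosmotic) of all genes, the 40 nucleolar factors (orange) and 8 further lists, with the number of measured genes in parentheses; boxes give quartiles and median, whiskers the 5th to 95th percentile, and points single genes (not drawn for all genes). The nucleolar factors have a median of −0.225 against 0.0375 for all genes and −0.01375 for the 68 ribosomal protein genes. That of the 6574 brighter genes, not drawn, was −0.0075.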

How the data were processed

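Total RNA of 8 samples of perfused rat liver was read on 1-colour Affymetrix arrays. Per the submitters' processing notes, the authors used Transcriptome Analysis Console 4.0; how probes were summarised and arrays normalized is not given in the sources used here. For 27596 probe sets the deposited log2 values were used as they stand, with array medians of 4.05 to 4.16. No source names the log2 scale, which was inferred from the values. An array has no read depth, and 4 arrays per group limit the precision.

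Probe sets with 1 gene symbol (15310; 323 had several and 11963 had none) were named through the platform annotation, updated by gene ID with RefSeq's GRCr8 gene table (15279 matched), and the probe set with the highest mean was kept for each of 14506 genes. Levels of different probe sets were compared only as ranks of brightness, to pick probe sets, to set apart brighter or dim genes and to name the brightest members. The test was limma's (3.58.1, under R 4.3.3; lmFit and eBayes, two-sided, buffer as the only term), with Benjamini-Hochberg adjustment over all genes. The fit was tested on simulated data.

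The members and lists were chosen with earlier results of these data known, so no set test was run. Values in every array are given for the called members, for the 6 uncalled members with the smallest p, for the 3 with the most positive change and for the 3 with the highest mean; of each further list up to 4 called genes a direction and both ends are named, and Myc. Polr1b and Nop58 are given in every array as well, chosen after their values were seen. Promoter windows are RefSeq's (GRCr8). Results were recomputed under 16 other settings: each array left out in turn, quantile normalization, arrays centred on their medians, weights per array, a robust prior with a trend, the clock score as a covariate, a block for the replicate number, probe sets of a gene averaged, and no genes from the dimmest 25%. Leaving out normoosmotic replicates 1 and 3 together was a further setting, added after seeing the data.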

Additional observations from a re-analysis of the deposited data

Results flagged for a closer look

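Among 82 groups of 4 arrays (the 40 members and Myc in both buffers), 2 held a value set apart from the other three of its group, where chance gives about 1 in 20. Npm1 read 8.82 in normoosmotic replicate 4, below the next value of 9.31. Rcl1 read 7.49 in normoosmotic replicate 2, above the next value of 7.15.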

How the results depend on the processing

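The median change of the 40 members stayed below 0 in all 17 alternatives, between −0.2675 and −0.16, and 32 to 36 members lay below 0. The sign was kept in every alternative by 30 members below 0 and 4 above, while 6 had both signs. Of the 37 uncalled members 33 were called in 0 alternatives and 4, namely Nop14, Npm1, Noc3l and Nolc1, in at least 1. Over the fits that leave out 1 array, the count of members called lower ranged from 0 to 4 and that of all genes called from 81 to 365. The clock score as a covariate gave 0 members and 92 genes, and leaving out normoosmotic replicates 1 and 3 gave 0 members and 21 genes; the latter has fewer samples, and the cause of the former was not tested. With the replicate number as a block, 1 member was called, Gnl3, of 256 genes in all. The labels do not say what a shared number means. Deviations of same-numbered arrays correlated at 0.0456, 0.0276, 0.0835 and 0.173 over genes, not every array correlated best with its own number, and the numbers were not taken as pairs. The other alternatives gave 2 to 4 members called lower, and every alternative gave 0 called higher. With quantile normalization Wdr43 was not called (adjusted p = 0.0595).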
